A study of Mus musculus with 10 samples.

Results

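The transcripts described here encode 10 regulators of mRNA stability: Mex3b, Zfp36, Zfp36l1, Zfp36l2, Rc3h1, Zc3h12a, Btg1, Btg2, Tob1 and Elavl1. Their levels come from splenic CD4+ cells of C57Bl/6 mice, 8 to 12 weeks old, taken 6 h after an operation under halothane. The operation in 5 mice was cecal ligation and puncture (CLP), which lets gut bacteria into the abdomen and is widely used to model sepsis. The other 5 had a sham laparotomy, an opening of the abdomen without that injury. Bead-based negative selection brought CD4+ cells to about 91% per the series description, so other spleen cells remained, and 1 Affymetrix array was made per mouse. The labels name no transgene or deletion in either group. Members were taken as every probe set (a set of short probes read as 1 value) whose annotation gives exactly 1 gene symbol, that of a member. This gave 23 probe sets out of 34945 with 1 symbol, for 10 of 18193 genes, and 17 of them, at least 1 per gene, passed a filter on low signal. The genes were proposed with the CLP and sham results of these arrays already known, so the differences between CLP and sham below describe the members and are no independent evidence about them.

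How long an mRNA survives is set largely by proteins that bind its 3 prime untranslated region and by the enzymes they recruit. Zfp36 (tristetraprolin), Zfp36l1 and Zfp36l2 bind AU-rich elements through a pair of zinc fingers and bring in the CCR4-NOT deadenylase, which shortens the poly(A) tail. Elavl1 (HuR) binds similar elements and stabilises many of these transcripts. Rc3h1 (Roquin) and Zc3h12a (Regnase) act on stem-loop elements, Zc3h12a as an endonuclease, and both restrain T cell activation. Btg1, Btg2 and Tob1 link RNA-binding proteins to the deadenylase, and Btg1, Btg2 and Tob1 are known for roles in keeping T cells quiescent. Mex3b binds RNA through KH domains and carries a RING finger typical of ubiquitin ligases.

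Of the 10 genes, Mex3b and Tob1 were lower in CLP mice and passed the test. Mex3b was 2.44-fold lower and Tob1 was 1.68-fold lower, and in both genes every CLP array lay below every sham array. Among the other 15 probe sets tested none passed. The largest of their differences was that of a dimmer Btg1 probe set, with a log2 fold change of 0.95 ± 0.31 (SE, n = 5 mice in each group), while the brightest Btg1 probe set gave 0.02 ± 0.08. The Zfp36 family, Rc3h1, Zc3h12a, Btg2 and Elavl1 did not pass in either direction.

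Of the 17 member probe sets tested, 2 fell and 0 rose at an adjusted p under 0.05 (limma, Benjamini-Hochberg over all 27022 probe sets tested). By the same rule 0.537% of all probe sets fell and 0.167% rose, 0.703% in all. At an unadjusted p under 0.05 by limma, 3 of the 17 member probe sets were lower and 1 was higher. Of all 27022 probe sets, 2020 were lower and 931 higher by that rule. All CLP arrays lay below every sham array in 2 member probe sets and above every sham array in 0, where 2.11% and 0.862% of all probe sets did so. Because the members were proposed with these differences in view, nothing is read from their counts. The 17 members had a median log2 fold change of -0.06, against 0.0049 over all 27022 probe sets, with 10 lower and 7 higher in CLP. Their whole range is shown in the plot of member fold changes.

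**Figure D1:**
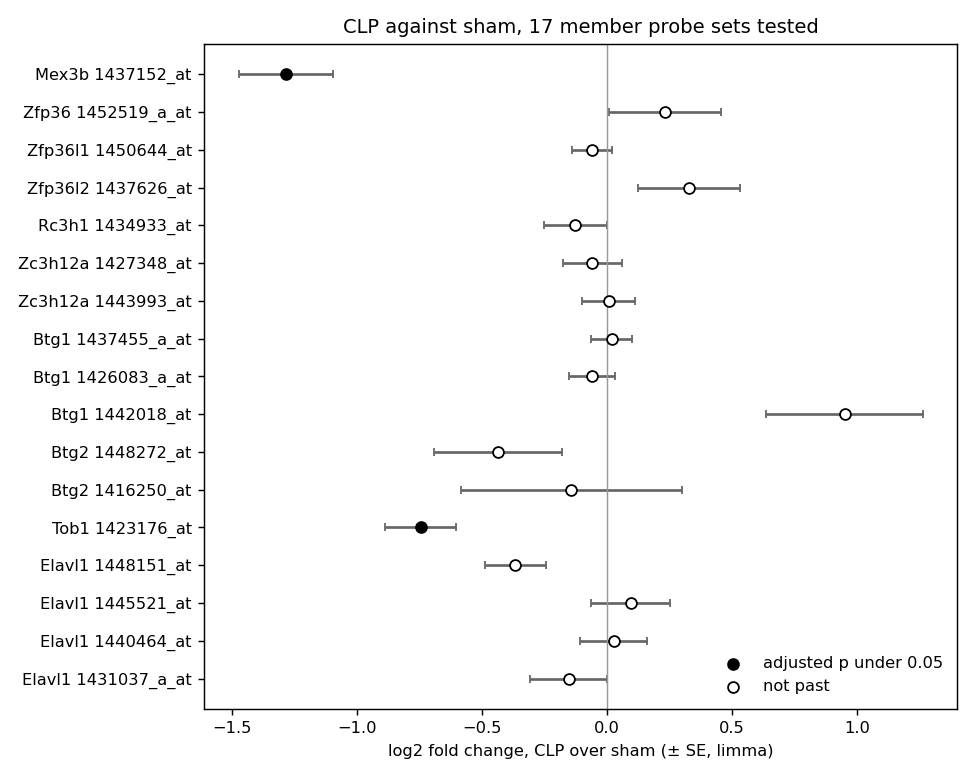
Log2 fold change of CLP over sham (horizontal axis, ± SE of limma, n = 5 mice in each group) for the 17 member probe sets tested. Filled points passed an adjusted p of 0.05: Mex3b at -1.29 and Tob1 at -0.75; open points did not.

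Because Mex3b and Tob1 were the members that passed, the 250 bases before their start sites are shown, from RefSeq on GRCm38.p6, both on the plus strand, at chr7:82867083-82867332 for Mex3b and chr11:94211204-94211453 for Tob1. Capitals mark matches, on either strand, to any of the motifs searched.
Mex3b: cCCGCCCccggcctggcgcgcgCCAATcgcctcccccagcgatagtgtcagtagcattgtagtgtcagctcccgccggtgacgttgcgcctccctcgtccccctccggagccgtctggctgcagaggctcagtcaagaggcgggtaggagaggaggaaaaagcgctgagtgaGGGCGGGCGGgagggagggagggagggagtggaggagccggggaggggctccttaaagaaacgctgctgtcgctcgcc
Tob1: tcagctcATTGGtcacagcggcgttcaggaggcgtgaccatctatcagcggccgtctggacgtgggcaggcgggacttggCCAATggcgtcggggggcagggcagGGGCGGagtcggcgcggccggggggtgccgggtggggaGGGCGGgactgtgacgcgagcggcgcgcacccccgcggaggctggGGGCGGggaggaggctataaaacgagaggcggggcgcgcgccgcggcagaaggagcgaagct
The motifs searched were CCAAT (the CCAAT box), GGGCGG (the GC box), TGACGTCA (the cAMP response element), CACGTG (an E-box), TGANTCA (AP-1), TGTTTAC (bound by forkhead factors), the NF-kB consensus and the CArG box of serum response factor. The Mex3b window held 1 CCAAT and 3 GGGCGG matches, of which 2 overlap each other. The Tob1 window held 2 CCAAT and 3 GGGCGG matches. Of all 32851 windows of this length 33.8% held CCAAT and 32.7% held GGGCGG, so both motifs are common. The other motifs had 0 matches in both windows; they occur in between 1.47% (CArG box) and 7.25% (NF-kB consensus) of all windows. Among the other 7 member genes with a window, Zfp36 held 1 CArG box, Btg2 held 1 TGACGTCA, Btg1 held 1 TGTTTAC, and Zfp36l1 and Rc3h1 held 1 TGANTCA each. These matches are letters in a window and were not tested as binding sites.

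Before the members' values are given, the arrays need a description, because they fell into 2 classes that cut across the surgery groups. The signal of 18S ribosomal RNA, read by the middle control probe set, lay between 194.3 and 268.4 in 4 arrays (CLP replicates 2 and 4, sham replicates 2 and 4). It lay between 3134 and 5178 in the other 6. The ratio of 3 prime to 5 prime signal of Gapdh, which reads how complete the amplified RNA is, was also lower in the low-18S arrays, from 9.45 to 13.4, than in the high-18S arrays, from 20.7 to 29.5. The same ratio of actin did not separate the classes. It ran from 7.40 to 10.8 in low-18S and from 6.25 to 11.7 in high-18S arrays. Each class holds arrays of both groups, so the surgery difference can be read within each class and with the class as a term in the fit. Array medians lay between 127.6 and 142.4, and no 2 arrays were identical.

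The labelled cell type was checked against markers. The T cell genes Cd3e and Cd4 had log2 intensities of 11.35 and 10.71 in CLP arrays and of 11.47 and 10.83 in sham arrays. The means of all 7 T cell markers measured were lower in CLP (median difference -0.12 on the log2 scale). The differences were -0.06 to -0.12 for Cd2, Cd3d, Cd3e and Cd4, but -0.49 ± 0.27 for Cd3g, -0.69 ± 0.17 for Cd5 and -0.79 ± 0.27 for Thy1 (SE). The last 2 are close in size to that of Tob1 below, and none of the 7 passed (adjusted p of 0.102 for Cd5 and 0.25 for Thy1 by limma). Of 34 marker genes of T cells, B cells, monocytes, neutrophils, dendritic cells, NK and CD8 T cells, red cells and platelets, 30 were tested, and by limma 0 rose and 0 fell, while at an unadjusted p under 0.05 their 36 probe sets included 2 higher and 2 lower in CLP. The summed intensity of 7 T cell markers ran from 12437 to 15342 in CLP arrays and from 13924 to 21086 in sham arrays. That of 4 neutrophil markers ran from 1787 to 10019 in CLP arrays and from 3384 to 9312 in sham arrays. For 3 red cell markers, of which Hba-a1 was below the filter, the sum ran from 683 to 3881 in CLP arrays and from 296 to 1543 in sham arrays. The red cell genes Slc4a1 and Alas2 gave log2 differences of 1.42 ± 0.57 and 0.95 ± 0.45 (SE). The neutrophil genes S100a8 and S100a9 gave -0.82 ± 0.56 and -0.90 ± 0.55, and none of these passed. The 5 B cell markers summed to between 2632 and 5251 in CLP arrays and between 2654 and 4345 in sham arrays. Monocyte and macrophage markers (5 genes) ran from 3219 to 4180.2 in CLP arrays and from 2606 to 3940.2 in sham arrays. Csf1r was much the brightest of them (mean log2 11.36 in CLP and 11.34 in sham arrays), so the sum mostly reads that gene. By class, this sum ran from 3760 to 4180.2 in low-18S and from 2606 to 3641 in high-18S arrays, without overlap. The sums of the other marker lists overlapped between the classes. Lyz2 and Itgam lay close to the filter. Cd14 was higher in CLP by 0.72 ± 0.21 (SE) and did not pass (adjusted p = 0.156 by limma). The remaining differences lay between -0.10 (Lyz2) and 0.02 (Adgre1). Dendritic cell, NK and CD8 T cell, and platelet markers were dim, with no summed value above 659 on any array, and Xcr1, Siglech and Ncr1 were below the filter. Whether these cell types had a part in the member results was not tested.

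Mex3b has 1 probe set (1437152_at). Its intensity, scaled to a common array median, was 188, 171, 167, 243 and 145 in CLP replicates 1 to 5, and 344, 629, 411, 529.6 and 348 in sham replicates 1 to 5. The highest CLP value lay below the lowest sham value. The mean log2 intensity was 7.49 ± 0.28 in CLP arrays and 8.78 ± 0.38 in sham arrays (SD, n = 5 each), which gave a log2 fold change of -1.29 ± 0.19 (SE, 95% interval -1.70 to -0.87, adjusted p = 0.0225 by limma). In bulk RNA, fewer cells of a type that carries the transcript and less of it per cell cannot be told apart. Within the low-18S arrays the log2 fold change was -1.50, and within the high-18S arrays it was -1.14. With the 18S class in the fit the SE narrowed to 0.13 and the adjusted p was 0.00318 (limma). Mex3b itself was higher in the low-18S than in the high-18S arrays, with mean log2 intensities of 8.42 and 7.95. Leaving out CLP replicate 2, 3 or 5, or sham replicate 3 or 4, ended the call, with log2 fold changes between -1.31 and -1.21 and adjusted p between 0.0567 and 0.0775 by limma.

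Tob1, an antiproliferative adaptor of the deadenylase, has 2 probe sets. The brighter (1423176_at) read 372, 388, 298, 355 and 256 in CLP replicates 1 to 5, and 441, 630.1, 551, 643 and 526 in sham replicates 1 to 5. Here too the groups did not overlap, with a gap between 388 in CLP and 441 in sham arrays. Mean log2 intensities of 8.37 ± 0.25 in CLP and 9.11 ± 0.22 in sham arrays (SD, n = 5 each) gave a log2 fold change of -0.75 ± 0.14 (SE, 95% interval -1.06 to -0.44, adjusted p = 0.0433 by limma). The difference was -0.78 within the low-18S arrays and -0.72 within the high-18S arrays, and with the class in the fit the adjusted p was 0.0138 (limma). The call ended when any array other than CLP replicate 1 or CLP replicate 4 was left out, with log2 fold changes from -0.83 to -0.65 and adjusted p of up to 0.134. It also ended with quantile normalization (-0.71, adjusted p = 0.0622 by limma). Its dimmer probe set (1440844_at) lay below the filter, between 83.0 and 114 in CLP arrays and between 71.0 and 108 in sham arrays, and the groups overlapped.

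**Figure D2:**
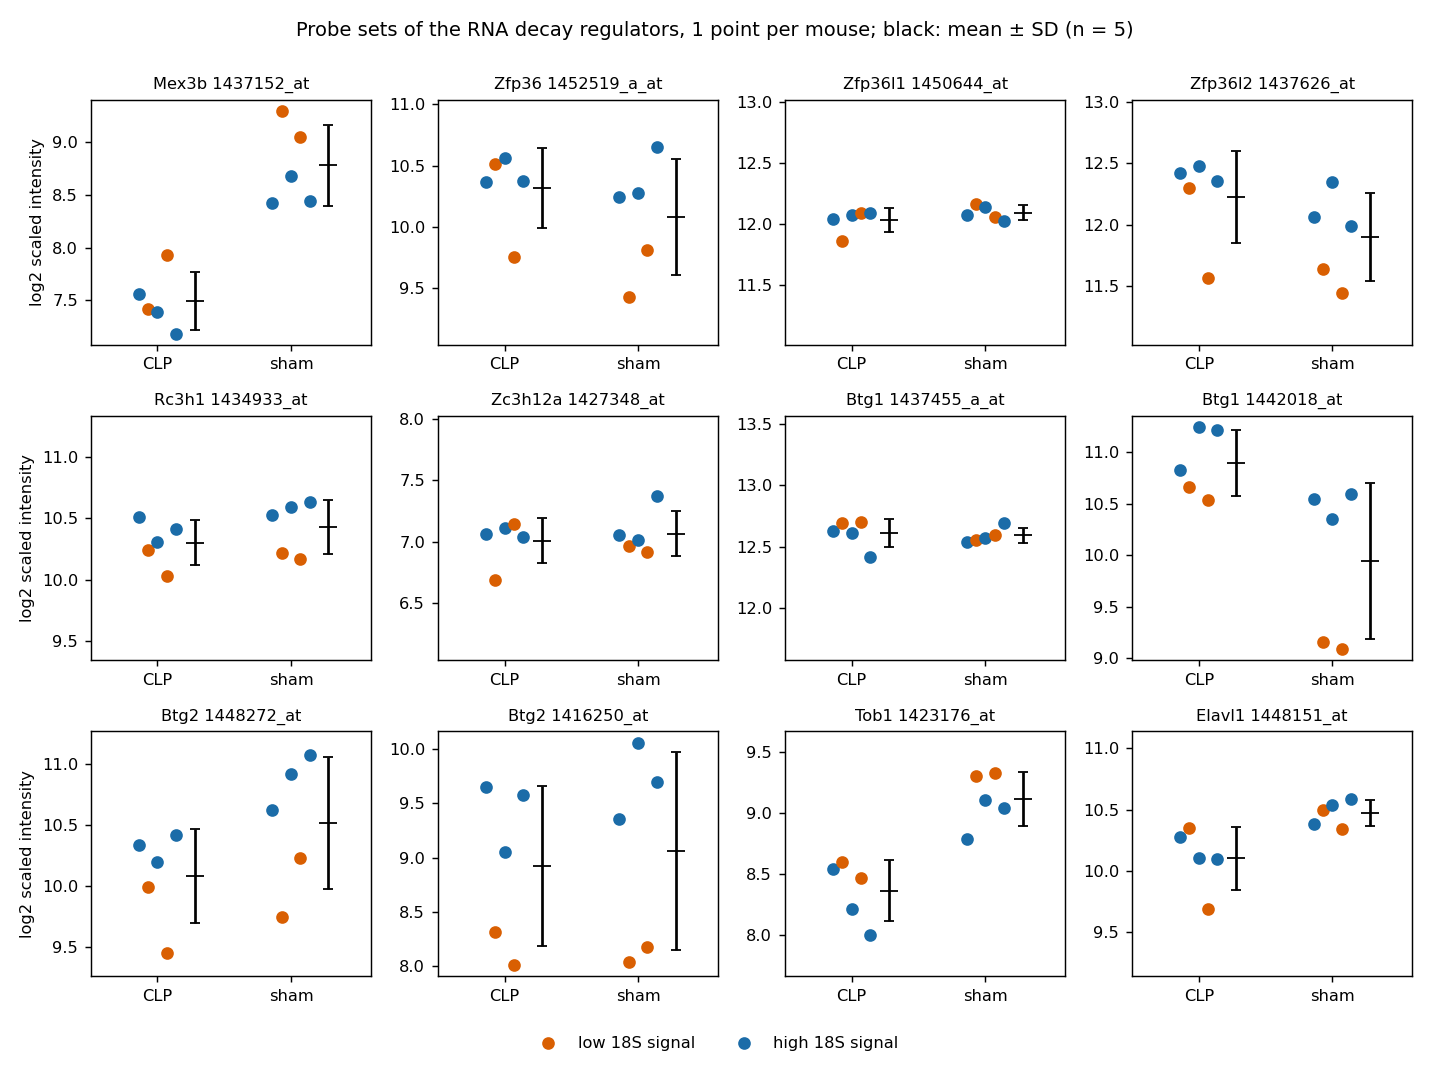
Log2 scaled intensity of 12 member probe sets (vertical axes, each spanning at least 2 log2 units), with CLP arrays left and sham arrays right, 1 point per mouse, and the mean ± SD (n = 5) in black. Orange points are the 4 low-18S arrays and blue points the 6 high-18S arrays; in Mex3b and Tob1 no CLP point reaches a sham point, and in both Btg2 probe sets the orange points lie at the bottom of each group.

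The 2 other adaptors of the deadenylase, Btg1 and Btg2, did not pass by any probe set. Btg1 was read by 3 probe sets, 2 of which were among the brightest members. The brightest (1437455_a_at) lay between 5461 and 6646 in CLP arrays (median 6344) and between 5962 and 6605 in sham arrays (median 6086). Its log2 fold change of 0.02 ± 0.08 (SE) had a 95% interval from -0.16 to 0.20, and the next brightest (1426083_a_at) gave -0.06 ± 0.09.

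The third Btg1 probe set (1442018_at) behaved otherwise. It read 1812, 1620.1, 2433, 1486 and 2377 in CLP replicates 1 to 5, and 1491, 573, 1305, 544 and 1545 in sham replicates 1 to 5. The 2 lowest values, 573 and 544, were those of the low-18S sham arrays, and only the low-18S CLP replicate 4, at 1486, reached into the sham range. The log2 fold change of 0.95 ± 0.31 did not pass (95% interval 0.26 to 1.64, adjusted p = 0.226 by limma). With the 18S class in the fit it was 0.95 ± 0.16 and passed (adjusted p = 0.0194 by limma), 1 of 17 member probe sets to rise in that fit, where 0.648% of all probe sets rose and 2.01% fell. The difference was 1.48 within the low-18S arrays and 0.60 within the high-18S arrays. Averaged over its 3 probe sets, Btg1 had a log2 fold change of 0.30 (adjusted p = 0.388 by limma over 13073 genes). Which Btg1 transcript each probe set reads is not given in the sources used here.

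Btg2, known as a p53-inducible and early-response gene, had 2 probe sets whose arrays spread more widely than those of most transcripts. The brighter (1448272_at) read 1295, 1021, 1173, 703 and 1369.6 in CLP replicates 1 to 5, and 1578, 859.9, 1935, 1199 and 2153 in sham replicates 1 to 5. In each group the low-18S arrays gave the 2 lowest values. Its log2 fold change was -0.44 ± 0.26 (SE, 95% interval -0.997 to 0.12, adjusted p = 0.632 by limma). The dimmer probe set (1416250_at) gave -0.14 ± 0.44, with an SD of 0.74 in CLP and 0.91 in sham arrays, against medians of 0.21 and 0.19 over all probe sets tested. In it every low-18S array, at 318 or below, lay below every high-18S array, at 530.2 or above.

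Among the AU-rich element binders, Zfp36 (1452519_a_at) read 1319.9, 1458, 1513, 861 and 1329 in CLP replicates 1 to 5, and 1211, 688, 1240.2, 898 and 1605 in sham replicates 1 to 5. The groups overlapped, and the log2 fold change of 0.23 ± 0.22 (SE, 95% interval -0.26 to 0.72) did not pass (adjusted p = 0.847 by limma). It was 0.51 within the low-18S arrays and 0.05 within the high-18S arrays. Zfp36l2 (1437626_at) read 5484, 5034, 5713, 3022 and 5240.3 in CLP replicates 1 to 5, and 4277, 3182, 5210.3, 2776 and 4066 in sham replicates 1 to 5. Here 4 of the 5 CLP arrays lay above 4 of the 5 sham arrays, while CLP replicate 4 lay among the lowest. The log2 fold change was 0.33 ± 0.21 (SE, 95% interval -0.12 to 0.78, adjusted p = 0.672 by limma).

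Zfp36l1 (1450644_at) was the steadiest of this family. It lay between 3728 and 4363 in CLP arrays (median 4314) and between 4162 and 4596 in sham arrays (median 4301). The log2 fold change was -0.06 ± 0.08 (SE), with a 95% interval from -0.23 to 0.11. The SD over sham arrays, 0.06 on the log2 scale, was lower than that of all but 3.33% of probe sets tested. The second Zfp36l1 probe set and the 2 others of Zfp36l2 lay below the filter, with no array above 96.3, close to the floor of 69.8 below which values were not told apart.

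Elavl1, the stabilising counterpart, was represented by 6 probe sets, of which 4 were tested. The brightest (1448151_at) read 1238, 1307, 1099, 826 and 1096 in CLP replicates 1 to 5, and 1335, 1447, 1488, 1297 and 1541 in sham replicates 1 to 5. Only CLP replicate 2, at 1307, reached into the sham range, whose lowest value was 1297. Mean log2 intensities were 10.10 ± 0.26 in CLP and 10.47 ± 0.10 in sham arrays (SD, n = 5 each). The log2 fold change of -0.37 ± 0.12 (SE, 95% interval -0.64 to -0.10) did not pass over the whole table (adjusted p = 0.232 by limma). The other 3 tested probe sets, at 296 or below on every array, gave between -0.15 ± 0.15 and 0.09 ± 0.16, and the mean over the 4 tested probe sets was -0.10 (adjusted p = 0.726 by limma). The last 2 lay below the filter, 1 of them at the floor on all 10 arrays.

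Rc3h1 and Zc3h12a, the stem-loop regulators, did not pass. Rc3h1 (1434933_at) lay between 1047 and 1463 in CLP arrays (median 1265) and between 1148 and 1586 in sham arrays (median 1478), with a log2 fold change of -0.13 ± 0.13 (SE, 95% interval -0.40 to 0.15). The 4 low-18S arrays were the 4 lowest, at 1208 or below, and the high-18S arrays lay at 1265 or above. Zc3h12a was dim in its 2 probe sets, between 103 and 141 in CLP and between 99.9 and 166 in sham arrays over both. The log2 fold changes were -0.06 ± 0.12 for 1427348_at and 0.01 ± 0.11 for 1443993_at. The 95% intervals ran from -0.32 to 0.20 and from -0.22 to 0.24, and a difference in Zc3h12a within them cannot be told from 0.

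Several members differed by 18S class. With surgery and class in the same fit, 5 of 17 member probe sets were lower in the low-18S than in the high-18S arrays and 1 was higher, where 10.1% of all probe sets were lower and 4.99% higher. In 2 of them, Rc3h1 and Btg2 1416250_at, every low-18S array lay below every high-18S array, as in 7.77% of all probe sets. The class split was found after the data were seen, and it was not used to choose the members. The 5 lower were both Btg2 probe sets, the dimmest of Btg1, Zfp36l2 and Rc3h1, and the 1 higher was Mex3b. The largest class difference was that of Btg2 1416250_at, with mean log2 intensities of 8.13 in low-18S and 9.56 in high-18S arrays (difference -1.43 ± 0.16, SE, adjusted p = 0.000275 by limma). The other Btg2 probe set differed by -0.74 ± 0.14 (adjusted p = 0.00679 by limma) and Btg1 1442018_at by -0.93 ± 0.17 (adjusted p = 0.0041 by limma). Zfp36l2 differed by -0.54 ± 0.14 (adjusted p = 0.0221 by limma) and Rc3h1 by -0.33 ± 0.08 (adjusted p = 0.0187 by limma). Zfp36 had a like difference of -0.54 ± 0.17 that missed the threshold (adjusted p = 0.0509 by limma). Mex3b differed by 0.48 ± 0.13 (adjusted p = 0.0333 by limma), and Tob1 by 0.31 ± 0.11, which did not pass (adjusted p = 0.086 by limma).

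**Figure D3:**
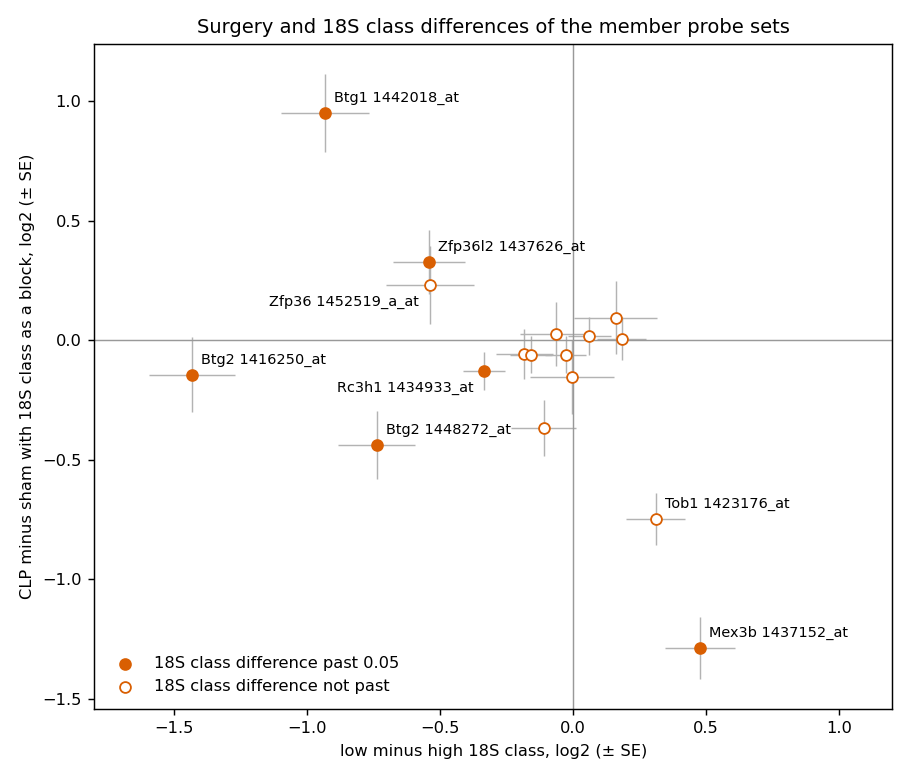
Each point is 1 of the 17 member probe sets, with the log2 difference of low-18S minus high-18S arrays on the horizontal axis and of CLP minus sham, with the class in the fit, on the vertical axis (± SE). Filled points passed an adjusted p of 0.05 for the class; the Btg2 probe sets lie to the left, at surgery differences of -0.14 and -0.44, and Mex3b and Tob1 lie at the lower right.

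The rest of the RNA decay machinery was read from lists chosen by role. No probe set of the deadenylases, decapping and Xrn1, the exosome, nonsense-mediated decay or microRNA effectors passed. The deadenylase list also holds partner subunits of the deadenylase complexes. Over its 13 genes the median log2 fold change was -0.08, with 5 higher and 8 lower in CLP. The median over all 13073 genes tested was 0.0046. By the brightest probe set of each gene, Cnot8, a catalytic subunit of CCR4-NOT, had the lowest p of this list (-0.34 ± 0.14, adjusted p = 0.387 by limma). Over all its probe sets the lowest p was that of a dimmer one of Cnot6l, another catalytic subunit (1434311_at, -0.44 ± 0.14, adjusted p = 0.21 by limma), while the brightest Cnot6l probe set gave -0.18 ± 0.14. Parn, a further poly(A) nuclease, gave 0.25 ± 0.13. Decapping and Xrn1 had a median of -0.08 over 10 genes, in which Dcp2, the decapping enzyme, gave -0.34 ± 0.11 and its enhancer Edc3 gave -0.41 ± 0.16. In that Dcp2 probe set (1455070_at) every CLP array lay below every sham array, but it did not pass (adjusted p = 0.197 by limma). A dimmer Dcp2 probe set (1430150_at) gave -0.03 ± 0.10, and its groups overlapped. The 14 exosome genes had a median of 0.06, with Exosc6 at 0.23 ± 0.10 and Exosc8 at -0.25 ± 0.13, and the 5 genes of nonsense-mediated decay a median of -0.06, with Smg1, a kinase, at -0.16 ± 0.19 and Upf2 at 0.13 ± 0.10.

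Of 11 relatives of the members on the arrays, 8 were tested and none passed (median -0.01, 4 higher and 4 lower). Tob2, the closest relative of Tob1, gave -0.38 ± 0.15 (adjusted p = 0.354 by limma), and Mex3c, a relative of Mex3b, -0.38 ± 0.16 (adjusted p = 0.39 by limma). The 5 Tob2 probe sets disagreed: another gave -0.39 ± 0.14, and the remaining 3 lay between -0.01 ± 0.09 and 0.13 ± 0.08. Among 7 microRNA effectors (median -0.04), Dicer1, which cuts microRNA precursors, gave 0.35 ± 0.14 by its brightest probe set and -0.61 ± 0.22 by another. Ago2, which carries the microRNA, gave -0.25 ± 0.16 by its brightest probe set. Its other probe sets gave 0.17 ± 0.25, 0.05 ± 0.09 and -0.02 ± 0.19. The dimmer Dicer1 probe set, which did not pass otherwise (adjusted p = 0.259 by limma), passed with the 18S class in the fit (adjusted p = 0.0313 by limma).

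Of 13 other RNA-binding proteins none passed (median -0.02, 6 higher and 7 lower). Arid5a, which in mice protects Il6 mRNA from Regnase, had a log2 fold change of 1.08 ± 0.25 (adjusted p = 0.0782 by limma), with means of 10.35 ± 0.59 in CLP and 9.27 ± 0.24 in sham arrays (SD, n = 5 each). With the 18S class in the fit it passed (adjusted p = 0.0467 by limma), and so did a probe set of Pum2, a Pumilio protein that represses mRNAs, which was lower (1418017_at, -0.74, adjusted p = 0.0236 by limma). The brightest Pum2 probe set gave -0.16 ± 0.09. Hnrnpd (AUF1), an AU-rich element binder, gave 0.18 ± 0.09.

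Transcripts reported elsewhere as targets of the Zfp36 proteins, Roquin or Regnase were read last. Of 23 on the arrays, 17 lay above the filter on low signal and were tested. Of these 17, 15 had a higher mean in CLP arrays and 2 a lower one. Their median log2 fold change was 0.21, against 0.0046 over all genes tested. The filter reads the mean over both groups, so a target dim in sham arrays could be kept through its CLP arrays alone. The split therefore describes the 17 and not the whole list. Only 3 passed, all higher: Dusp1, a MAP kinase phosphatase (0.96 ± 0.13, adjusted p = 0.0163 by limma), Il10 (1.22 ± 0.22, adjusted p = 0.0349 by limma) and Tnfrsf4 (OX40; 0.93 ± 0.18, adjusted p = 0.0441 by limma). The calls of Il10 and Tnfrsf4 each ended in 8 of 10 fits with 1 array left out (adjusted p of up to 0.111 and 0.136 by limma): for Il10 without any array but CLP replicates 1 and 4, and for Tnfrsf4 without any but CLP replicate 1 and sham replicate 5. That of Dusp1 ended without CLP replicate 5 or sham replicate 3 (up to 0.0729 by limma). Il10 was dim in sham arrays, between 84.5 and 115, close to the floor of 69.8. Its mean log2 intensity was 6.56 in sham arrays, under the filter of 6.70, and 7.78 in CLP arrays. It was therefore tested only through its CLP signal. Ctla4, an inhibitory receptor, had a larger difference than these 3 and did not pass (1.44 ± 0.29, adjusted p = 0.0513 by limma), but passed with the 18S class in the fit (adjusted p = 0.028 by limma). Several of these genes, these 3 among them, were known to be higher on these arrays when the list was made, so its direction is not independent evidence. Tnf, the best known target of Zfp36, gave -0.08 ± 0.11 and did not pass, and Icos, a target of Roquin, gave 0.10 ± 0.13. Whether a change in stability or in transcription lies behind any of these levels was not tested, since the arrays measure the amount of RNA.

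**Figure D4:**
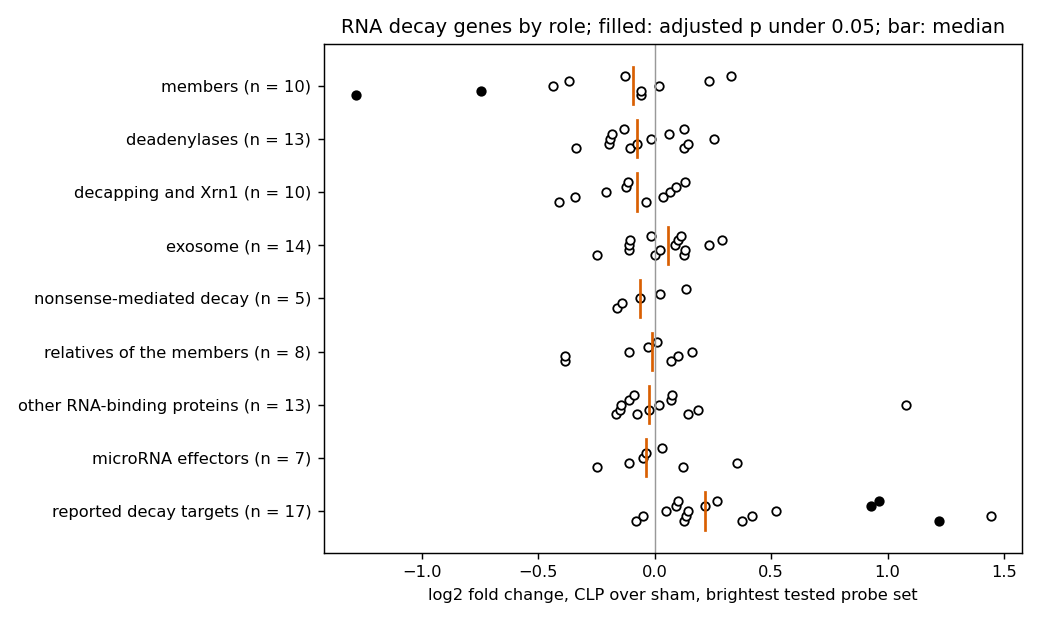
Log2 fold change of CLP over sham (horizontal axis) for the brightest tested probe set of each gene, in rows by role, with the number of genes in each row and its median as an orange bar. Filled points passed an adjusted p of 0.05: Mex3b and Tob1 among the members, and Tnfrsf4, Dusp1 and Il10 among the reported targets.

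The genes whose pattern over the 10 arrays was most like that of Mex3b were Ccr9, a gut-homing chemokine receptor (Pearson r = 0.978), Septin7 (0.974), Shprh (0.972), Rbm26 (0.961) and Echdc1 (0.961). These values describe the 10 arrays, which share the surgery groups and the 18S classes, and no test is given.

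How the results for Mex3b, Tob1 and Btg1 1442018_at moved with the processing is shown in the plot of their settings. Over all 23 alternatives run, Mex3b stayed lower in CLP (log2 fold change from -1.50 to -1.14) and passed in 15, and Tob1 stayed lower (from -0.83 to -0.65) and passed in 11.

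**Figure D5:**
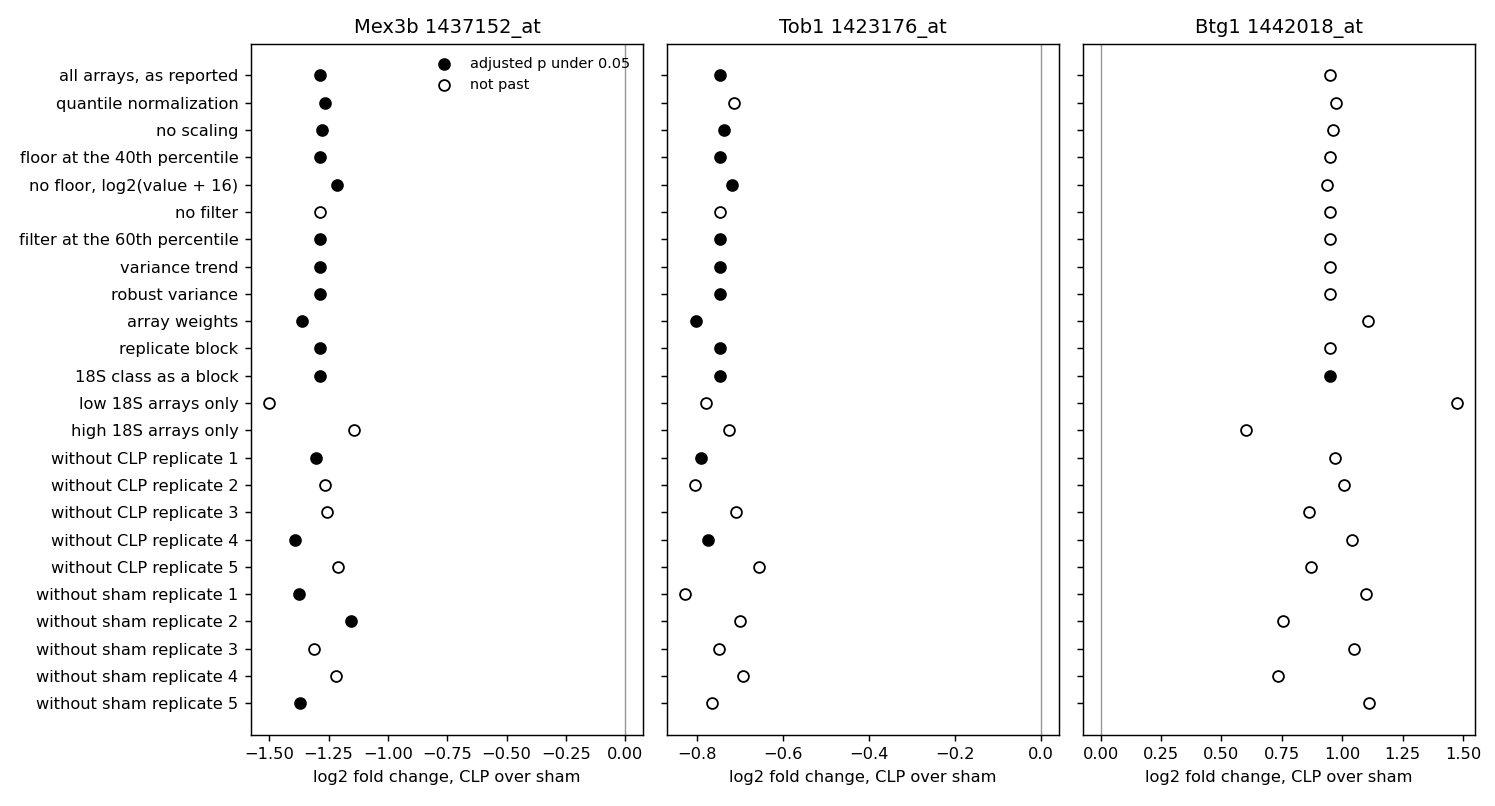
Log2 fold change of CLP over sham (horizontal axes) for Mex3b, Tob1 and Btg1 1442018_at under each setting of the processing and without each array in turn (rows). Filled points passed an adjusted p of 0.05; Mex3b and Tob1 stay below 0 in every row shown, and Btg1 1442018_at stays above 0 and passes only with the 18S class as a block.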

How the data were processed

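Affymetrix arrays of splenic CD4+ cells, 1 per mouse, were compared between 5 CLP and 5 sham mice. Per the labels' protocols, biotin-labelled cRNA was made with 2 rounds of amplification for small samples, which shortens copies towards the 3 prime end. What the authors deposited is a linear intensity for each probe set on each array, and no source used here names the software, background correction or scaling that made it. Each array is labelled as an individual mouse, and on that reading p-values measure the spread between mice. The CLP titles run from biological replicate 1 to 5. All 5 sham titles read biological replicate 1, with a suffix from sham-1 to sham-5, and sham numbers come from that suffix.

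Of 45101 probe sets, 64 were controls, 34945 had 1 gene symbol in the platform annotation, 932 had several and 9160 had none. The Entrez identifiers were set against RefSeq's GRCm38.p6 table, where 204 probe sets had no match and 0 symbols changed. Of the 10 genes, 9 had a promoter window in the RefSeq table. Arrays were brought to the same median, a floor was set at the 25th percentile of all values (69.8), and log2 was taken, so fold changes of transcripts near that floor are understated. Controls and probe sets with a mean log2 under the 40th percentile (6.70) were left out. CLP was compared with sham in limma 3.58.1 (R 4.3.3) over the 27022 remaining probe sets, with Benjamini-Hochberg adjustment and a threshold of 0.05. A fold change is CLP over sham, SE is moderated, and intervals are at 95%. Tables were made with pandas 2.3.3 in Python 3.11.15 and figures with matplotlib 3.10.9.

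The members, lists and alternatives were chosen with earlier results of these data known. The text names all members. Of each list it names the genes past the threshold and the 2 with the lowest p by the brightest probe set. Tnf, Icos, Ctla4, Pum2, Cnot6l and the cell type markers given with values were named after their values were seen. The 18S class was split at an intensity of 1000. Alternatives covered scaling, floor, filter, variance model, array weights, replicate and class blocks, each class alone and each array left out.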

Additional observations from a re-analysis of the deposited data

Results flagged for a closer look

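In 4 of 34 groups of 5 arrays checked over the 17 member probe sets tested, 1 array stood apart from the rest of its group. Its gap on the log2 scale, as a share of the group's whole range, was above the critical value of Dixon's test. The intensities beside the gaps below are linear. Chance alone gives such a group about 1 time in 20. CLP replicate 4 was lowest for Zfp36 (861, gap 0.7576 of the range) and for Zfp36l2 (3022, gap 0.8014). CLP replicate 2 was lowest for Zfp36l1 (3728, gap 0.7707) and for Zc3h12a 1427348_at (103, gap 0.7684). Both are low-18S arrays. Without CLP replicate 4 the log2 fold change was 0.37 for Zfp36 and 0.49 for Zfp36l2, and without CLP replicate 2 it was -0.02 for Zfp36l1 and 0.02 for Zc3h12a 1427348_at; none of these passed.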

How the results depend on the processing

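Over 13 alternatives that keep all arrays or 1 class of them, Mex3b passed in 10 and Tob1 in 9, both always lower in CLP. Over 10 arrays left out in turn, Mex3b passed in 5 and Tob1 in 2, and member probe sets that fell ran from 0 to 2 and those that rose stayed at 0. Mex3b was lost without the filter on low signal (adjusted p = 0.0905 by limma) and in the low-18S (0.412) and high-18S arrays (0.0531) alone. Without the filter more probe sets were tested (45037), and the SE of Mex3b was 0.21, against 0.19 with the filter. Within a class fewer arrays were compared. The cause of these losses was not otherwise tested. The fallen members numbered 1 with quantile normalization, 0 without the filter and 0 within each class; with the class as a block 1 member rose. Probe sets that rose and fell over the whole table, 45 and 145 as reported, numbered 0 and 3 without the filter, 154 and 355 with array weights, 175 and 543 with the class as a block, and 0 and 0 by limma within either class. At an unadjusted p under 0.05 those within-class fits had 825 higher and 1113 lower (low-18S) and 875 higher and 2766 lower (high-18S), against 931 and 2020 over all arrays. The adjusted counts ran from 0 to 123 and from 4 to 384 with 1 array left out. Listed decay genes rose in 3 probe sets and fell in 0 as reported; 0 rose without the filter and within either class, 5 rose with array weights, and 5 rose and 2 fell with the class as a block, and with 1 array left out 0 to 5 rose and 0 to 1 fell.

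With the replicate number as a block, 90 probe sets rose over the whole table (158 fell), 1 listed decay gene fell, and Mex3b (adjusted p = 0.0217) and Tob1 (0.0441) still passed, and no other member call changed. Deviations of same-numbered CLP and sham arrays correlated at 0.063 to 0.582, with 1 of 5 pairs under 0.1. Only CLP replicate 2 correlated best with its own number, so the numbers were not taken to pair the mice. The low-18S arrays carry the numbers 2 and 4 in both groups, so the replicate block also takes up the 18S class.

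Signs turned for 8 member probe sets close to 0, all uncalled. With array weights these were Zc3h12a 1427348_at (0.010), Btg2 1416250_at (0.012), Elavl1 1445521_at (-0.0029) and Elavl1 1440464_at (-0.026). With the floor at the 40th percentile it was Zc3h12a 1443993_at (-0.0013). In the low-18S arrays they were Zc3h12a 1443993_at (-0.033), Btg1 1426083_a_at (0.048), Btg2 1416250_at (0.056) and Elavl1 1431037_a_at (0.045), and in the high-18S arrays Btg1 1437455_a_at (-0.048) and Elavl1 1440464_at (-0.058). With 1 array left out Zc3h12a 1427348_at ran from -0.096 to 0.022, Zc3h12a 1443993_at from -0.058 to 0.055, Btg1 1437455_a_at from -0.003 to 0.068, Btg2 1416250_at from -0.40 to 0.11 and Elavl1 1440464_at from -0.051 to 0.096.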
